A study of Mus musculus with 6 samples.

Results

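Collagen chain genes were compared across sorted mouse intestinal stem cells with and without the RING proteins of Polycomb repressive complex 1 (PRC1). They were taken as every gene whose symbol is Col, a number, a and a number, and several RefSeq entries of one symbol were reduced to the entry with the highest mean. This gave 40 genes among the 17403 symbols of both deposited tables together: 10 fibrillar chains, 9 chains of the basement membrane and its zone, and 21 others. The table of WT and RingKO held 38 of them among 18376 entries, the table of the other pair held 32 among 17076, and 30 were in both.

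All 6 libraries were made from messenger RNA of small-intestinal crypt cells sorted on Lgr5-GFP, from C57BL/6 mice killed 6 days after 3 injections of tamoxifen. Every group carried Lgr5Gfp-CreERT2, which places GFP and a tamoxifen-activated Cre recombinase under the control of Lgr5, a marker of crypt stem cells. WT (2 libraries) had no further allele, and RingKO (2 libraries) was Ring1a-/- Ring1bf/f, a homozygous null of Ring1a (symbol Ring1) with a floxed Ring1b (symbol Rnf2) that Cre can delete only in Lgr5-expressing cells and their progeny. The Bcat library carried Ctnnb1-ex3, an allele of the beta-catenin gene, with a genotype labelled WT for the Ring genes, and the Bcat_RingKO library carried Ctnnb1-ex3 with Ring1a-/- Ring1bf/f. The age of the mice is not given in the sources used here. The labels do not say whether libraries of a group came from separate animals, so the p-values reflect the spread among these libraries alone, and that spread may be technical.

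Collagens are extracellular proteins in which chains wind into a triple helix, and connective tissue cells make most of them. Fibrillar collagens form the fibres of the stroma, and FACIT collagens (fibril-associated collagens with interrupted triple helices) sit on those fibres. Type IV collagen forms the network of the basement membrane on which the intestinal epithelium rests, and type VII collagen anchors that membrane to the stroma. PRC1 ubiquitinates histone H2A and holds genes silent, often at promoters rich in CG dinucleotides.

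The 4 upstream sequences printed here belong to the 2 collagens with the smallest adjusted p in RingKO and to 2 stromal fibril chains that were lower in Bcat_RingKO than in Bcat. Each is the 250 bases before the RefSeq start on the plus strand of GRCm38.p6, 5′ to 3′, with every CG in capitals. Col16a1 lies at chr4:130047590-130047839, Col27a1 at chr4:63215162-63215411, Col1a2 at chr6:4505368-4505617 and Col3a1 at chr1:45311288-45311537.
Col16a1: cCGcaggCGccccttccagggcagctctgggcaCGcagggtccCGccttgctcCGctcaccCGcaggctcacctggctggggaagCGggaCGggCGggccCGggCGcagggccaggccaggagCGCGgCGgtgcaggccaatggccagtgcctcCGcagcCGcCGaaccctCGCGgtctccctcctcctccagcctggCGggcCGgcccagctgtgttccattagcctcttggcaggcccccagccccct
Col27a1: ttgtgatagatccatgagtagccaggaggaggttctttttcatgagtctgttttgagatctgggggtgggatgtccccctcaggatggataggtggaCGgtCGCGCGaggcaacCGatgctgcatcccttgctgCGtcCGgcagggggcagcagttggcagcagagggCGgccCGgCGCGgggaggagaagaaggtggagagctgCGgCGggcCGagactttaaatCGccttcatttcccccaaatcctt
Col1a2: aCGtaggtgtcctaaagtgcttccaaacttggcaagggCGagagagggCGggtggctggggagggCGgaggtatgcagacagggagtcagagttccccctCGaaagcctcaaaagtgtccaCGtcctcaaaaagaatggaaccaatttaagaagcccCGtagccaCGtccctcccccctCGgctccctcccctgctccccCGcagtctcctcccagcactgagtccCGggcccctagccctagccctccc
Col3a1: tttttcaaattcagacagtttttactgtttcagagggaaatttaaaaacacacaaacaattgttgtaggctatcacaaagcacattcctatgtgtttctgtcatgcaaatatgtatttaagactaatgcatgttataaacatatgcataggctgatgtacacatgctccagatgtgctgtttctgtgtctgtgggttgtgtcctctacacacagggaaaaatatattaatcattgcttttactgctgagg
The counts of CG were 21 for Col16a1, 15 for Col27a1, 11 for Col1a2 and 0 for Col3a1. Of 13051 entries with such a sequence, 28.1% had at least as many as Col16a1 and 48.5% at least as many as Col27a1. The median was 14 over all these entries and 8.5 over the 32 collagens with a sequence. Among the collagens the most CG stood before Col4a1 (31), Col5a1 (28) and Col4a2 (26), none of which passed the test in RingKO. The RefSeq start of Col1a2 lies 125 bases from the start in the GENCODE annotation. These are counts of letters in 1 window, and no binding or chromatin was measured here.

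Recovered reads came to 6753789 and 6294932 for the WT libraries, 2911422 and 2651201 for the RingKO libraries, 922153 for Bcat and 4470853 for Bcat_RingKO, and the letters A and B for libraries of a group are arbitrary. Ring1 had 484 and 363 reads in WT against 9 and 11 in RingKO. In the pair it had 24 reads in Bcat and 43 in Bcat_RingKO, which after scaling was a ratio of 0.358 with a 95% counting interval of 0.213 to 0.617. Rnf2, the floxed gene, stood at 141 and 173 normalized reads in WT against 202 and 148 in RingKO (adjusted p = 1 in the authors' deposited table), and its ratio was 1.40 (1.1 to 1.8) in the pair. Its reads were thus not fewer in either comparison. The labels do not say which part is floxed, so reads over the whole gene do not check that allele. The 8 epithelial markers summed to 40280 to 44675 normalized reads in WT and RingKO and to 14206 and 7487 in Bcat and Bcat_RingKO, and of 7 fibroblast markers Pdgfra had 0 or 1 read in each library and Dcn and Lum 0 or 1 in each WT and RingKO library. Twist1 of the same list had 0 and 2 reads in WT against 15 and 19 in RingKO, and 54 in Bcat_RingKO, where Thy1 had 16. Summed over 8 Lgr5 stem cell markers, the level was 27302 and 31781 normalized reads in WT against 21030 and 9436 in RingKO. WT library A stood apart for type IV collagen, with 158 reads over its 6 chains against 22 in WT library B. A normalized read here is a recovered read divided by the size factor of its library.

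Collagen reads were few in every library. They numbered 550 and 326 in the WT libraries and 508 and 464 in the RingKO libraries, or 81.4 and 51.8 CPM (reads scaled to a common library total) in WT against 174 and 175 in RingKO. Both RingKO libraries lay above both WT libraries. At least 1 read was found for 35 and 29 of the 38 genes in WT and for 25 and 21 in RingKO, and 14 genes had at most 3 reads in each genotype. Per length, on the RPKM scale (reads scaled by transcript length and library total), the cartilage chain Col11a2 was the highest collagen in both WT libraries at 2.47 and 2.42, followed in library B by Col16a1 at 1.62. Col4a1 came second in WT library A at 2.11 RPKM and seventh in library B at 0.384. In RingKO the order was led by Col16a1 at 13.5 and 11.4 RPKM and Col27a1 at 5.28 and 4.71, which did not overlap. Col9a3 (4.47 and 3.85 RPKM) and Col11a2 (2.73 and 4.50 RPKM) followed, and their ranges overlapped.

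The comparison of RingKO with WT asked which collagens differ between the libraries labelled RingKO and WT. Of the 38 genes, 3 rose and 0 fell in the authors' deposited table, with a threshold of 0.05 on its adjusted p: the fibrillar chain gene Col27a1 and the FACIT genes Col16a1 and Col9a3. Among all 18376 entries 3.14% rose and 1.76% fell by the same rule. At an unadjusted p under 0.05 there were 4 collagens higher and 0 lower, with Col9a2 added, against 5.56% and 6.72% of all entries. The edgeR quasi-likelihood test called 4 higher and 0 lower of the 12 collagens it could test (9.91% and 2.95% of its entries), and DESeq2 called 3 higher and 0 lower (6.88% and 1.89%).

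Col27a1 encodes a fibrillar chain best known from cartilage. It had 24 and 24 reads in WT against 117 and 95 in RingKO, which are 15.3 and 16.9 normalized reads against 166 and 136. Both RingKO libraries were far above both WT libraries. The log2 fold change was 3.18 from the authors' deposited table (adjusted p = 3.98e-14), and edgeR gave 3.40 ± 0.23 (SE, n = 2 libraries per genotype, adjusted p = 0.000134).

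Col16a1, a FACIT chain found on fibrils and near basement membranes, was the collagen with the most reads in RingKO. It had 63 and 53 reads in WT against 204 and 157 in RingKO, or 40.3 and 37.3 against 290 and 225 normalized reads. The genotypes did not overlap. Its log2 fold change was 2.71 from the authors' deposited table (adjusted p = 5.43e-12) and 2.90 ± 0.19 in edgeR (SE, n = 2, adjusted p = 0.000115).

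Type IX collagen is a trimer of 3 FACIT chains on cartilage fibrils. Col9a3 had 25 and 17 reads in WT against 37 and 29 in RingKO, which became 16.0 and 12.0 against 52.6 and 41.6 normalized reads. The lower RingKO library stood well above the higher WT library. The log2 fold change was 1.73 from the authors' deposited table (adjusted p = 0.0318) and 1.92 ± 0.33 in edgeR (SE, n = 2). Without WT library A edgeR gave 2.14 (adjusted p = 0.0536) and without WT library B 1.71 (adjusted p = 0.1002), against 1.92 with all libraries. The authors' own test was not rerun. Its partner chain Col9a2 had 1 and 0 reads in WT against 7 and 8 in RingKO, with every RingKO value above every WT value. Col9a2 missed the threshold of the authors' deposited table (log2 fold change 3.61, adjusted p = 0.112) and passed in edgeR (4.76 ± 0.86, adjusted p = 0.00887), and DESeq2 gave an adjusted p of 0.0641. The remaining chain, Col9a1, had 8 and 1 reads in WT against 1 and 1 in RingKO, and overlapped.

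**Figure D1:**
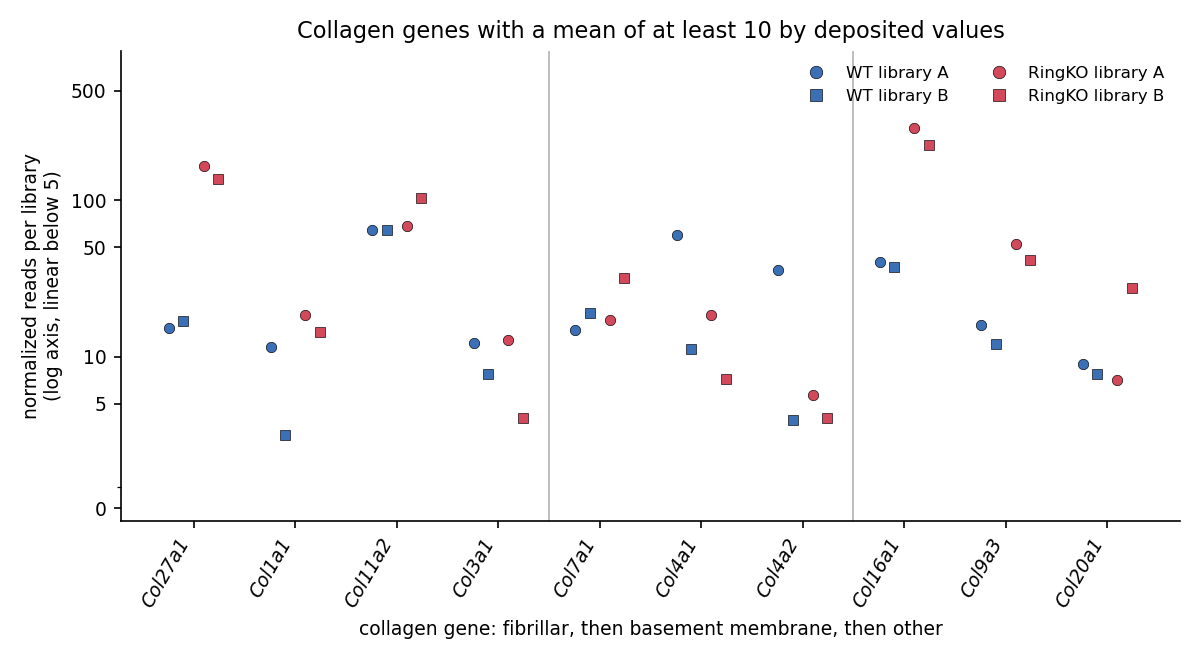
Normalized reads per library (log axis, linear below 5) of the 10 collagen genes with a mean deposited value of at least 10, in WT (blue) and RingKO (red), with circles for library A and squares for library B. The RingKO points of Col27a1, Col16a1 and Col9a3 lie clear of their WT points, and WT library A stands above the other libraries for Col4a1 and Col4a2.

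The other fibrillar chains did not pass the test. Col11a2 stood at 64.6 and 64.8 normalized reads in WT against 68.2 and 103 in RingKO, so the lower RingKO library nearly met the WT level (adjusted p = 0.899 in the authors' deposited table). The type I chain Col1a1 had 18 and 5 reads in WT against 13 and 10 in RingKO, or 11.5 and 3.52 against 18.5 and 14.4 normalized reads, without overlap (adjusted p = 0.771 in the authors' deposited table). Its partner Col1a2 had 14 and 7 reads in WT against 3 and 2 in RingKO and lay lower in both RingKO libraries, with an adjusted p of 1 in the authors' deposited table. The chains of 1 heterotrimer thus stood on opposite sides of WT, neither past the test. Col3a1, the chain of type III collagen in soft stroma, overlapped at 12.1 and 7.75 normalized reads in WT against 12.8 and 4.31 in RingKO. Col5a1, a type V chain that starts fibrils, had 5 and 1 reads in WT against 7 and 4 in RingKO. The other 4 fibrillar chains in the table, Col2a1, Col5a2, Col5a3 and Col11a1, had at most 6 reads in any library.

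None of the 9 basement membrane chains passed the authors' test, and 0 had an unadjusted p under 0.05. There were 0 calls by DESeq2, and 0 by edgeR among the 3 chains it could test. The type IV chains Col4a1 and Col4a2, the common chains of that network, had 94 and 16 reads and 56 and 6 reads in WT, against 13 and 5 reads and 4 and 3 reads in RingKO. The WT libraries differed more from each other than RingKO differed from WT library B. The log2 fold changes were -1.35 for Col4a1 and -1.69 for Col4a2 from the authors' deposited table (adjusted p = 1 for both), and without WT library A the Col4a1 estimate of edgeR was 0.36. Col15a1, a collagen of the basement membrane zone, had 22 and 17 reads in WT against 1 and 3 in RingKO, or 14.1 and 12.0 against 1.42 and 4.31 normalized reads. Both RingKO libraries were below both WT libraries, yet it passed neither the authors' test (log2 fold change -1.67, adjusted p = 0.647 in the authors' deposited table) nor edgeR's (-1.97 ± 0.63, adjusted p = 0.0873). Col7a1, the chain of anchoring fibrils, overlapped at 14.7 and 19.0 normalized reads in WT against 17.1 and 31.6 in RingKO. Col18a1, the source of endostatin, had 7 and 1 reads in WT against 0 and 7 in RingKO, and the other 4 type IV chains had at most 3 reads in any library.

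Of the FACIT chains not yet described, Col14a1 had 3 and 7 reads in WT against 8 and 8 in RingKO, or 1.92 and 4.93 against 11.4 and 11.5 normalized reads. These did not overlap, and the adjusted p was 0.609 in the authors' deposited table and 0.0778 in edgeR. Col20a1 had 14 and 11 reads in WT against 5 and 19 in RingKO, so the RingKO libraries lay on either side of WT. Col12a1 and Col19a1 had at most 1 read in any of these libraries. The transmembrane chain Col23a1 had 7 and 1 reads in WT against 7 and 10 in RingKO (edgeR log2 fold change 2.32 ± 0.73, adjusted p = 0.0812). Col17a1, the transmembrane collagen of hemidesmosomes, had 4 and 11 reads in WT against 0 and 4 in RingKO and overlapped. The 3 type VI chains of this table, Col6a1, Col6a2 and Col6a5, had 1 to 3 reads in each WT library and none in RingKO, which allows up to 4.26 and 4.31 normalized reads (3 reads) in the RingKO libraries. The short-chain genes Col8a1, Col8a2 and Col10a1 had 1 to 11, 0 to 1 and 0 to 2 reads per library, and Col25a1, Col26a1 and Col28a1 had 0 to 3.

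Over all 38 genes the RingKO libraries lay wholly above WT in 10 and wholly below in 9, against 18% and 33.6% of all entries. Of the 9, 7 had no read in RingKO, whose libraries held fewer reads than those of WT. At a mean deposited value of at least 10, the median log2 fold change in the authors' deposited table was 0.77 for 4 fibrillar chains, -1.35 for 3 basement membrane chains and 1.73 for 3 other chains. The basement membrane median became 0.38 without WT library A. Over the 10 collagens together it was 0.80, beside -0.18 for all 10957 entries at that level. Over all members the medians were 0.25, 0.53 and 0.53, beside 0.024 for all entries. The value of 0.53 is that of chains with 1 read over both WT libraries and none in RingKO (Col4a5, Col4a6, Col25a1 and Col26a1), since the deposited value adds 1 read before scaling.

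**Figure D2:**
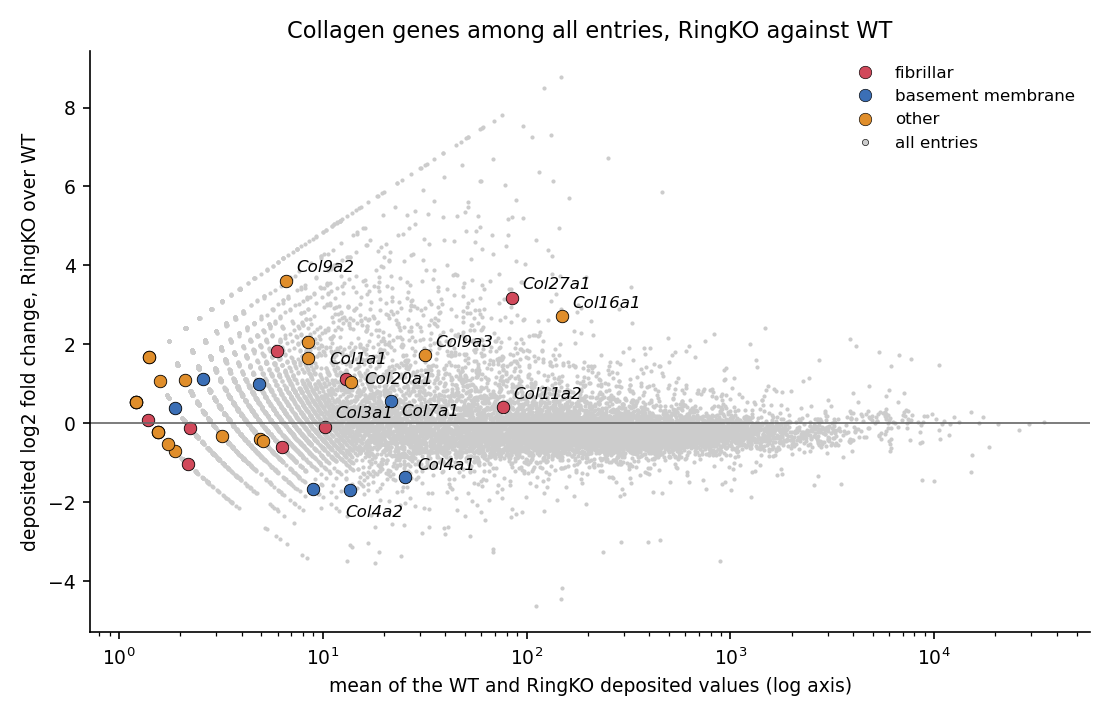
Deposited log2 fold change of RingKO over WT (vertical axis) against the mean of both deposited group values (log axis), with all 18376 entries in grey and the 38 collagen genes coloured by class. Col27a1, Col16a1 and Col9a3 stand above the bulk of entries of like abundance, while Col4a1 and Col4a2 lie below 0.

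Summed over the genes, collagens gave 352 and 230 normalized reads in WT against 722 and 666 in RingKO, a ratio of means of 2.39. Fibrillar chains went from 122 and 101 to 283 and 267, and the other chains from 95.2 and 81.0 to 391 and 342, without overlap in either class. Basement membrane chains overlapped, at 134 and 47.2 in WT and 48.3 and 57.4 in RingKO, a ratio of 0.583 that became 1.12 without WT library A. With Col27a1, Col16a1 and Col9a3 taken out, the remaining 35 genes summed to 280 and 163 in WT and 213 and 263 in RingKO, a ratio of 1.07 with overlap. With 2 libraries per genotype, an exact two-sided permutation test of a sum cannot give a p below 0.33, and none was run. In bulk libraries, fewer cells of a type and less RNA per cell cannot be told apart.

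**Figure D3:**
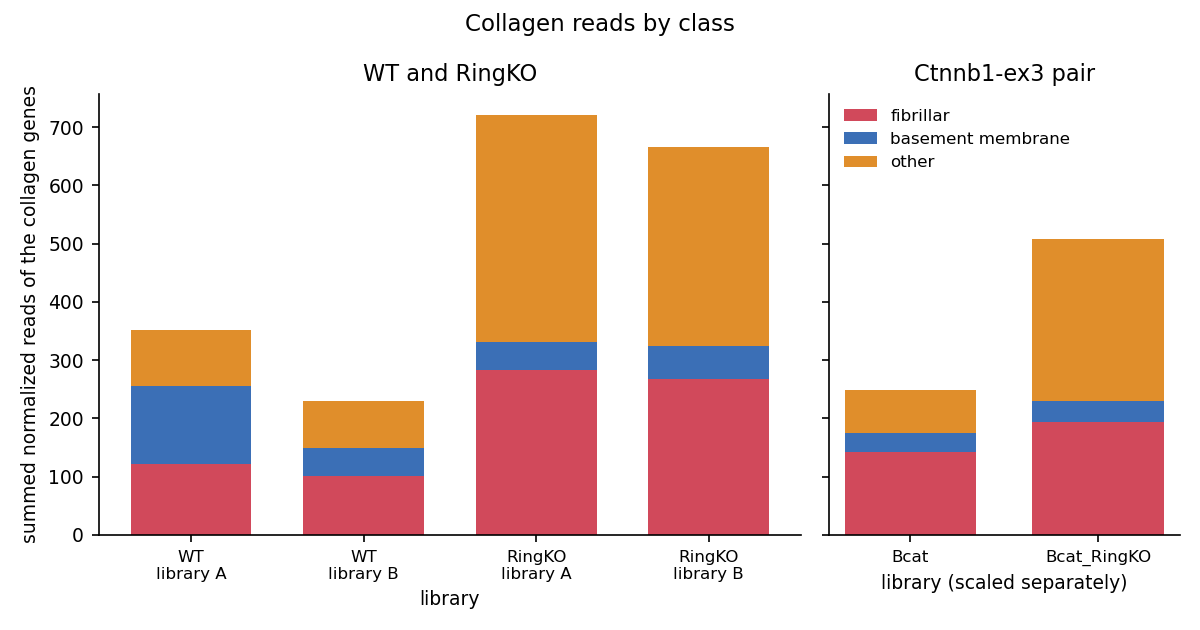
Summed normalized reads of fibrillar, basement membrane and other collagens in each library (stacked bars from 0), with WT and RingKO on the left and the Ctnnb1-ex3 pair, scaled separately, on the right. The RingKO bars reach 722 and 666 against 352 and 230 in WT, and most of the gain is in the fibrillar and other classes.

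Levels of other cell types' markers were measured beside these rises. Summed over 7 fibroblast markers, the level was 0.64 and 4.93 normalized reads in WT against 22.7 and 30.2 in RingKO. Nearly all of the RingKO level was Twist1, a mesenchymal transcription factor gene, which rose (adjusted p = 0.00049 in the authors' deposited table), and without WT library A its edgeR adjusted p was 0.0536 (log2 fold change 4.17 against 5.13 with all libraries). Pdgfra had 0 and 0 reads in WT against 1 and 0 in RingKO. Endothelial markers (7 genes, mostly Esam) were at 137 and 141 in WT against 132 and 112 in RingKO. Immune markers (9 genes) were at 64.6 and 51.4 in WT against 66.8 and 93.3 in RingKO. Smooth muscle and pericyte markers (8 genes) were at 35.8 and 51.4 in WT against 69.6 and 80.4 in RingKO. Glia and neuron markers (4 genes) were at 16.0 and 19.0 in WT against 31.3 and 33.0 in RingKO. The fibroblast, smooth muscle, immune and glial sums were thus higher and the endothelial sum lower in both RingKO libraries. Of these genes 1, Twist1, passed the authors' test, and the pericyte genes Mcam (edgeR adjusted p = 0.0142) and Cspg4 (DESeq2 adjusted p = 0.0416) passed another. The part of these cells in the collagen rises was not tested.

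The second comparison set Bcat_RingKO beside Bcat, 1 library each, so differences have no replicate check and no p is given. A gene counted as different when past 2-fold by the deposited ratio at a mean deposited value of at least 10, which 11 of the 32 collagens reached. Of these, 6 were higher in Bcat_RingKO and 4 lower, while of 10266 entries at that level 26.8% were higher and 8.97% lower. The higher genes were Col27a1, Col16a1, Col9a3, Col11a2, Col7a1 and Col20a1, and the lower ones were the stromal fibril chains Col1a1, Col1a2, Col3a1 and Col5a2. Col5a1 was the gene between them.

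The 3 collagens that rose in RingKO were also higher in this pair. Col27a1 had 2 reads in Bcat and 316 in Bcat_RingKO, a normalized ratio of 31.6 (exact 95% counting interval 8.68 to 262). Col16a1 went from 3 to 394 reads, a ratio of 26.3 (8.92 to 128), and Col9a3 from 3 to 86 reads, a ratio of 5.73 (1.90 to 28.3). The intervals cover counting error only, and with 922153 reads in the Bcat library a few reads set each denominator. Col9a2 had 0 and 20 reads, at least 1.33-fold higher when 0 is set to 3 reads, and Col9a1 had 3 and 12 reads (ratio 0.800, 0.216 to 4.42).

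Other chains were higher in this pair without having passed in RingKO, and the difference between the comparisons was not tested. Col11a2 had 3 reads in Bcat and 92 in Bcat_RingKO, a ratio of 6.13 (2.03 to 30.3). Col7a1 had 0 and 55 reads, at least 3.67-fold higher, and Col20a1 had 0 and 52 reads, at least 3.47-fold higher. Col14a1 (0 and 15 reads) and Col23a1 (0 and 12 reads) stayed below the level set for counting.

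Col1a2, Col5a2, Col3a1 and Col1a1, fibril chains of the stroma, were lower in Bcat_RingKO. Col1a2 had 25 reads in Bcat and none in the deeper Bcat_RingKO library, at least 41.7-fold lower, and Col5a2 had 10 and 0, at least 16.7-fold lower. Col3a1 had 9 reads and 1 read, a ratio of 0.022 (0.001 to 0.160), and Col1a1 had 8 and 9 reads, a ratio of 0.225 (0.077 to 0.670). At lower levels, 3 chains of types VI and XII had reads in Bcat alone: Col6a1 had 7 and 0 reads, Col12a1 5 and 0 and Col6a2 4 and 0. These are at least 11.7-fold, 8.33-fold and 6.67-fold lower. Col6a3 (1 and 0 reads) and Col6a4 (2 and 1 reads) were too sparse for a direction, and Col14a1, a fibril-associated chain, had 0 and 15 reads. Col5a1, at 5 and 14 reads, had a ratio of 0.560 (0.191 to 1.99) whose interval holds 1.

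Summed over the 10 chains of types I, III, V, VI and XII in the pair, a grouping chosen after these values were seen, the level was 170 normalized reads in Bcat and 11.2 in Bcat_RingKO. The other table also held 10 chains of these types, with Col5a3 and Col6a5 in place of Col6a3 and Col6a4. They were at 46.7 and 22.5 in WT and 48.3 and 28.7 in RingKO, which overlap. The tables were scaled separately, so normalized reads do not compare across them. In CPM the sums were 82.4 in Bcat and 5.59 in Bcat_RingKO, beside 10.8 and 5.09 in WT and 11.7 and 7.55 in RingKO. Beside this, the 4 fibroblast markers listed for the pair summed to 4.47 normalized reads in Bcat and 34.0 in Bcat_RingKO, where Twist1 had 0 and 54 reads and Pdgfra 0 and 1. The 7 smooth muscle and pericyte markers summed to 29.1 and 71.6, the 4 endothelial to 33.5 and 102, the 5 glial to 13.4 and 30.0 and the 8 immune markers to 179 and 102 normalized reads. Among the endothelial genes only Esam, 3-fold higher by the deposited ratio, reached a mean of at least 10. Egfl7, Tek and Tie1 stayed below that level. Within the smooth muscle list Mcam had 0 and 101 reads, Cspg4 0 and 21 and Tagln 4 and 36, whereas Acta2 (4 and 1 reads) and Des (3 and 1) had fewer reads in Bcat_RingKO. Cnn1 (1 and 0 reads) and Rgs5 (1 and 0) were too sparse for a direction. The matrix gene Sparc had 9 reads and 1 read, a ratio of 0.022 (0.001 to 0.160). Non-collagen genes of fibrillar matrix went in both directions. Of 4 such genes at a mean of at least 10, 3 were past 2-fold higher and 0 lower. Among all entries at that level 26.8% were higher and 8.97% lower. Below that level Bgn had 7 and 2 reads, a ratio of 0.057 (0.006 to 0.300), and Fbn1 and Fbn2 each had 2 and 0. Comp, also below it, had 0 and 29 reads. The part of other cells in the stromal collagen reads of the Bcat library was not tested.

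Basement membrane chains other than Col7a1 were below the level set for counting. Col4a1 had 5 and 5 reads (ratio 0.200, 0.046 to 0.869), Col4a2 1 and 4 (0.800, 0.079 to 39.4) and Col15a1 4 and 18 (0.900, 0.296 to 3.66). Col4a3 and Col4a4 had at most 3 reads. Of the remaining chains, Col8a1 had 2 and 15 reads, Col17a1 had 0 and 3, and Col8a2, Col10a1, Col11a1, Col19a1 and Col28a1 had at most 5 reads in either library.

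**Figure D4:**
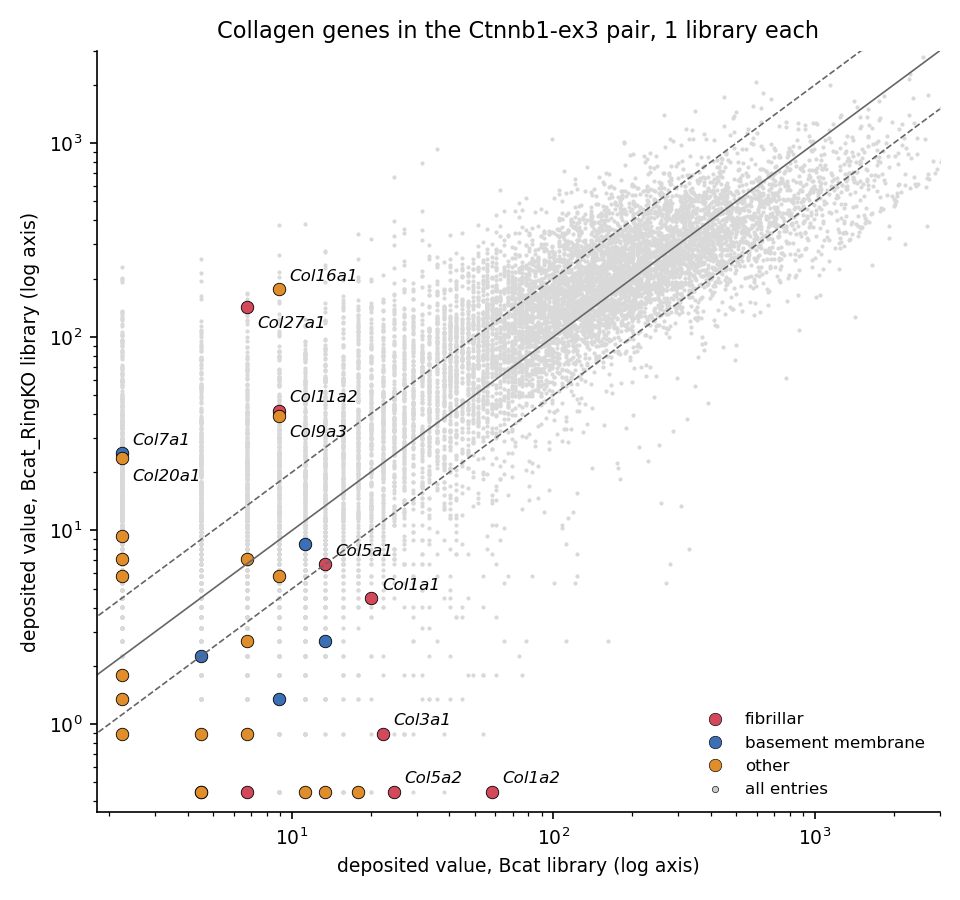
Deposited values of the 32 collagen genes (coloured by class) and all entries (grey) in the Bcat library and the Bcat_RingKO library, 1 library each (both axes log), with a solid line at equality and dashed lines at 2-fold. Col16a1 and Col27a1 lie far above the upper dashed line, and Col1a2, Col5a2 and Col3a1 lie along the lower edge with 1 read or none in Bcat_RingKO.

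Scaling and transcript length moved with the pair ratios. After scaling by trimmed means the log2 ratios of all entries shift by -0.22. For all entries at a mean of 10 or more, the median log2 ratio of the pair was -0.13 for transcripts under 2000 bases and 0.39, 0.53 and 0.81 in the bins of 2000 to 4000, 4000 to 6000 and at least 6000 bases. In RingKO against WT the same medians were -0.093, -0.20, -0.24 and -0.24. Of 39 collagens with a length, 16 lie in the third bin and 17 in the fourth. Taken relative to the median of its own bin, 6 collagens were still past 2-fold higher and 5 lower, a check added after the data were seen.

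Across all 4 groups the levels can be set side by side per length, with the caution that the tables were scaled separately. In Bcat the highest collagens were Col1a2 at 5.07 RPKM, Col6a1 at 1.85, Col3a1 at 1.75 and Col5a2 at 1.64. In Bcat_RingKO they were Col16a1 at 16.9 RPKM, Col27a1 at 9.29, Col9a3 at 6.76, Col11a2 at 3.40 and Col20a1 at 2.32. The first 4 of these are also the 4 highest in each RingKO library, whereas Col1a2 stood at 0.388 and 0.208 RPKM in WT.

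Genes that make, cut or hold collagen were taken from lists of the pathway. Of 18 genes for folding and modification of the chains, 2 rose and 0 fell in RingKO in the authors' deposited table, against 3.14% and 1.76% of all entries. The edgeR test called 6 higher and 0 lower of 12, against 9.91% and 2.95% of its entries. Leprel2 and Leprel4, leprecan family members that act on collagen chains in the endoplasmic reticulum, had 22 and 22 and then 40 and 49 reads, and 19 and 18 and then 49 and 36 reads (adjusted p = 0.00105 and 0.000505 in the authors' deposited table). Both lay above WT in both RingKO libraries. The 4 further edgeR calls were Plod1, Plod3, Crtap and P4ha1, enzymes and cofactors that hydroxylate lysine or proline. In the pair, 8 of the 13 genes with a mean of at least 10 were past 2-fold higher and 2 lower, against 26.8% and 8.97% of all entries at that level.

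Among 12 genes for collagen breakdown and its inhibitors, 2 rose and 0 fell in RingKO, beside 3.14% and 1.76% of all entries. Both were inhibitors of metalloproteinases: Timp2 had 36 and 39 reads in WT against 202 and 149 in RingKO (adjusted p = 3.45e-11 in the authors' deposited table), and Timp3 51 and 44 against 161 and 110 (adjusted p = 3.02e-05). None of the 10 genes for procollagen cleavage and crosslinking passed in the authors' deposited table or in DESeq2, and 0 had an unadjusted p under 0.05. The edgeR test could test 2 of them and called 1 higher, Bmp1, a procollagen proteinase. Over all its entries edgeR called 9.91% higher and 2.95% lower. Of 9 collagen receptors 0 passed the authors' test, edgeR (which could test 5) or DESeq2, and 0 had an unadjusted p under 0.05.

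Other proteins share the basement membrane with type IV collagen. Of 15 such genes, 4 rose and 0 fell in the authors' deposited table, where 3.14% and 1.76% of all entries did. In the pair 9 of 10 were past 2-fold higher, against 26.8% of all entries and, by transcript length (4056 to 14176 bases in this list), 32.0% of those of 4000 to 6000 bases and 41.7% of longer ones. Lama5, a laminin chain of the adult epithelial basement membrane, had 272 and 263 reads in WT against 458 and 664 in RingKO, or 174 and 185 against 651 and 953 normalized reads (adjusted p = 0.000645 in the authors' deposited table). Lamb1 and Lamb2, laminin beta chains, rose with adjusted p of 0.000291 and 0.00266 in the authors' deposited table. Agrn, which encodes agrin, had a log2 fold change of 0.74 from the authors' deposited table (adjusted p = 0.0081), and edgeR gave 0.92. Without WT library A edgeR gave 0.89 (adjusted p = 0.119) and without WT library B 0.93 (adjusted p = 0.101). In the lists for folding, breakdown and basement membrane, 0 genes were lower at an unadjusted p under 0.05 in the authors' deposited table. By adjusted p under 0.05, edgeR and DESeq2 also called 0 lower. The laminin genes Lama4 and Lamb3 still lay below WT in both RingKO libraries. Lama4 was at 14.7 and 17.6 normalized reads in WT against 4.26 and 4.31 in RingKO (edgeR adjusted p = 0.0672). Lamb3 was at 18.5 and 8.46 against 4.26 and 1.44. Of 14 non-collagen genes of fibrillar matrix, 0 passed in the authors' deposited table. Comp alone reached an unadjusted p under 0.05 there, where 5.56% of all entries were higher and 6.72% lower. Comp was also the 1 call, higher, by edgeR (4 genes tested) and by DESeq2, with 9 and 5 reads in WT against 14 and 37 in RingKO. Over all their entries edgeR called 9.91% higher and 2.95% lower, and DESeq2 6.88% and 1.89%.

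**Figure D5:**
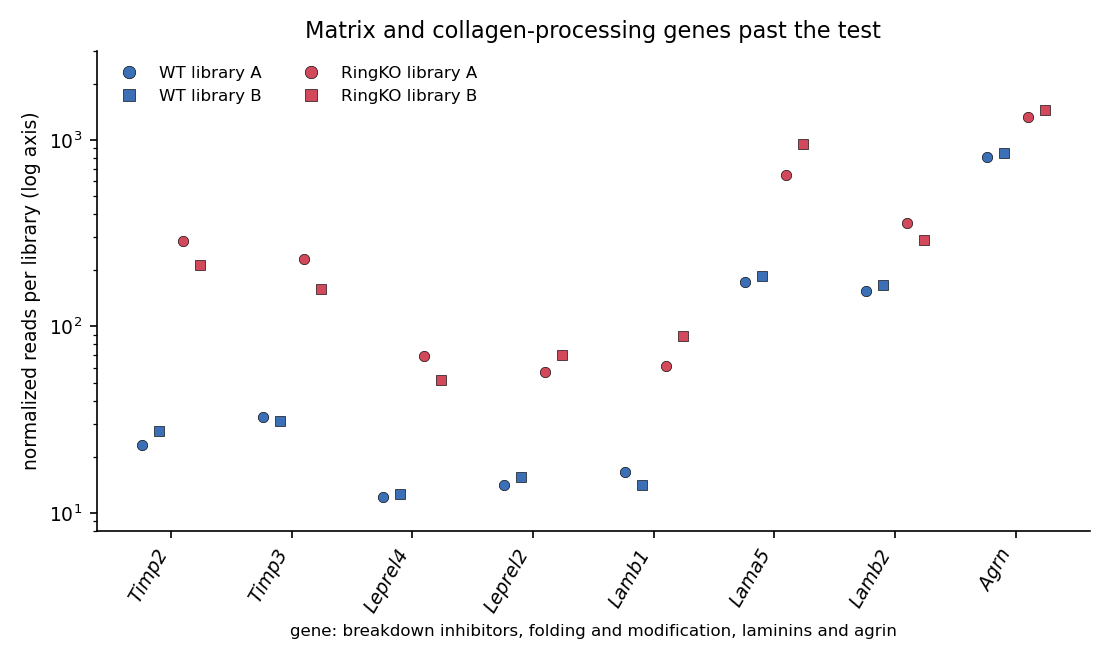
Normalized reads per library (log axis) of the 8 matrix and collagen-processing genes past the test, in WT (blue) and RingKO (red), with circles for library A and squares for library B. Both RingKO points lie above both WT points for every gene shown, with the widest gap for Timp2.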

How the data were processed

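Libraries of messenger RNA were made with the TruSeq RNA v2 kit, per the labels' protocols. TopHat, DESeq and the build mm9 are named without versions, per the submitters' processing notes, and no source used here gives the read counter or its use of strand. The authors deposited a normalized signal per RefSeq entry, as group means for WT and RingKO and as single libraries for the Bcat pair. The authors deposited a ratio and its log2 value for each entry, and for RingKO against WT p-values and adjusted p-values, which set the main calls at an adjusted p under 0.05.

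Each deposited signal is 1 more than a count, over the library's size factor, so the counts of single libraries were recovered from the sums of 2 whole numbers. In WT 18365 means had 1 solution and 11 had several, and in RingKO all 18376 had 1. The pair gave 100% whole values within 0.001. Recovery was tested on simulated data.

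Recovered counts were tested with edgeR 4.0.16 (quasi-likelihood, TMM, filterByExpr, Benjamini-Hochberg over the 11170 entries kept), DESeq2 1.42.0 and limma 3.58.1 (log2 CPM, pseudocount 1). The SE given for edgeR is the absolute log2 fold change divided by the square root of its F statistic. Ratios carry exact Clopper-Pearson 95% intervals of the counts. Zero counts are bounded at 3 reads per group in ratios, and at 3 reads per library where single libraries are given. Transcript lengths and promoters came from GRCm38 annotation and RefSeq, matched by accession or symbol, and RPKM was computed from recovered reads.

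The members and lists were chosen with earlier results of these data known. All members may be named, with full values for those past a test or past 2-fold and for Col1a1, Col1a2, Col3a1, Col4a1, Col4a2, Col7a1, Col17a1, Col18a1 and Col27a1, and up to 4 called genes per other list by smallest adjusted p. Other genes named were chosen after their values were seen. Alternatives were other tests and scalings, no filter, other pseudocounts and level limits, and leaving out each library.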

Additional observations from a re-analysis of the deposited data

Results flagged for a closer look

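Col1a1 lay above both WT libraries in both RingKO libraries but was lower in Bcat_RingKO than in Bcat, where its ratio was 0.225 (95% counting interval 0.077 to 0.670). The opposite directions drew attention to it. The difference between the comparisons was not tested, the pair has 1 library per group, and the reads numbered 18 and 5 for WT, 13 and 10 for RingKO, 8 for Bcat and 9 for Bcat_RingKO.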

How the results depend on the processing

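The authors' table gave 3 collagens higher in RingKO. With all libraries edgeR gave 4, and with 1 library left out at a time 2 to 6, the 6 coming without RingKO library A, when Col11a2, Col20a1 and Col23a1 also passed. The count of 0 lower stayed at 0 in each of these. The class medians ran from 0.49 to 1.25 (fibrillar), -2.09 to 0.38 (basement membrane) and 1.55 to 1.94 (other) with 1 library left out. Over all genes of the class the medians were 0.53 for basement membrane and 0.53 for other chains, with edgeR's tested genes -0.30 for basement membrane and 2.41 for other chains, and with a pseudocount of 5 1.45 for other chains. The ratios of summed reads ran from 1.97 to 3.02 (all), 2.25 to 2.71 (fibrillar), 0.394 to 1.12 (basement membrane) and 3.85 to 4.52 (other) with 1 library left out. Without the member with most reads they were 1.73 (all, without Col16a1), 4.02 (fibrillar, without Col11a2) and 2.20 (other, without Col16a1). In the Bcat pair, a level of at least 50 left 2 higher and 0 lower. A level of at least 5 gave 7 higher and 9 lower, against 6 and 4 at a level of at least 10, so which direction held more genes depended on the level. Of the named genes, 4 changed sign: with 1 library left out, the log2 fold change ran from -0.98 to 0.49 for Col3a1 and -0.088 to 1.91 for Col20a1 (turned without RingKO library B), -5.64 to 0.40 for Col17a1 (without RingKO library A) and -2.11 to 0.36 for Col4a1 (without WT library A). The value of -5.64 is a fit against a library without reads and is no bound. Leaving out a library leaves a lone one, assumed to vary like the other genotype. The cause was not tested. Col27a1 and Col16a1 kept their direction and call under every alternative run. No paired analysis was possible because the recovered libraries carry no replicate numbers. Depth limits the sparse chains, 14 of which had at most 3 reads in each genotype.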
